A study of Mus musculus with 5 samples.

Results

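The ETO corepressor genes Runx1t1, Cbfa2t2 and Cbfa2t3 and the RUNX factor genes Runx1, Runx2, Runx3 and Cbfb form a set of 7 genes that was chosen by name, of 22180 genes tested in all. Each was to be read from its brightest probe set paired with that gene symbol alone. There were 6 such probe sets, 1 for each gene except Runx2, which is not analysed here, so no choice between probe sets had to be made. Runx1t1 was proposed for its difference between the genotypes, and its own contrast is therefore given as a description with no test.

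RNA of bone marrow cells from C57BL/6 mice was hybridised to 1-colour Affymetrix whole-transcript arrays, with 2 wild-type (WT) arrays, genotype Polgtm1Lrsn wt/wt, and 3 Polg mutant arrays, genotype Polgtm1Lrsn mt/mt. Polg encodes the mitochondrial DNA polymerase, and the mutant allele is the basis of the mtDNA-mutator mouse. Leukocytes bearing CD45 had been removed on magnetic beads before the erythroid surface antigen Ter119 was used for positive selection. The design text calls mice of both genotypes phlebotomized, although the labels' treatment field reads none, and no age is stated in the sources used here. Both groups share a breeding scheme from Atg7 flox/flox, PolG wt/mt parents, of which the male was also Epo-cre ki/wt, and the sources used here do not say which offspring had the Cre. The labels do not state separate animals, and p-values then reflect only how these samples varied, which may be technical.

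The ETO proteins, also called MTG proteins, are nuclear corepressors that do not bind DNA themselves. Transcription factors such as the E proteins, TAL1 and GFI1B bring them to genes, where they recruit NCOR complexes and histone deacetylases, and the family member ETO2, encoded by Cbfa2t3, restrains erythroid genes until late maturation. The RUNX proteins bind DNA together with their shared partner CBFB and are needed for the formation of blood stem cells and for megakaryocyte and lymphoid development. The families are joined in acute myeloid leukaemia, where a translocation fuses RUNX1 to RUNX1T1.

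The RUNX genes have a sequence in common in their promoter windows. Promoter windows of 300 bases, 250 before and 50 after each annotated start, were taken from RefSeq on the GRCm38.p6 build, and 6 of the 7 genes had at least 1 window, with 9 windows in all. In 1 window each of Runx1, Runx2 and Runx3, the RUNX motif TGTGGT, here on its reverse strand as ACCACA, occurred as a close pair. The stretches are shown because they are the clearest feature in common among these genes, with the motif in capitals. They lie at chr16:92826027-92826056 on the minus strand for Runx1, at chr17:44814585-44814614 on the minus strand for Runx2 and at chr4:135120501-135120530 on the plus strand for Runx3.
Runx1: ctcataaacaACCACAgaACCACAagttgg
Runx2: ctcacaaacaACCACAgaACCACAagtgcg
Runx3: tggtccctcaACCACAgaACCACAaggcca
The longest run common to a window of each RUNX gene, the 18 bases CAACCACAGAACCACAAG that span the pair, was found on either strand in 4 of 32851 promoter windows (0.0122%). The windows were those of Runx1, Runx2, Runx3 and the provisional gene Gm16225, whose window overlaps that of Runx3 on the opposite strand. Because the run was derived from the RUNX windows, its presence in them was fixed in advance. Its first base lay at 26, 21 and -136 from the annotated start of Runx1, Runx2 and Runx3, so it followed the start in Runx1 and Runx2. The single motif TGTGGT was found on either strand in 16.8% of all windows and in none of the windows of Cbfa2t2, Cbfa2t3 and Cbfb. The other windows of Runx1 and Runx3 also lacked it. Which start site the transcripts on these arrays came from was not tested.

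Cbfa2t3 had 2 windows, and the upstream one held 4 E-boxes, the motif CANNTG to which E proteins and TAL1 bind. Its other window held 1, and the upstream window of Runx1 held 3. At least 1 E-box was found in 72.3% of all windows, and windows with 4 were not counted. The only GATA sequence searched for, AGATAA, was found on either strand in 11.2% of all windows and in none of the windows of these genes. Other GATA sequences were not counted, and the stretch below holds ttatca, which is TGATAA on the other strand. The bases before the upstream start, chr8:122699110-122699359 on the minus strand, are shown with the E-boxes in capitals because Cbfa2t3 had the largest difference in the set after Runx1t1.
Cbfa2t3: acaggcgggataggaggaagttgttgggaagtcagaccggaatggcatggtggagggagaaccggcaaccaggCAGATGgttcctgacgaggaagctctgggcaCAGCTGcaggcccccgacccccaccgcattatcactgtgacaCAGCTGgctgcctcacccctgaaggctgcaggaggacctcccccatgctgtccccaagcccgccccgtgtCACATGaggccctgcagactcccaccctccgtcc

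The arrays had medians between 5.10 and 5.13 on the log2 scale. Over the genes tested, the WT arrays had a Pearson's r of 0.990 and arrays of different genotype 0.983 to 0.991, across genes that are not independent replicates. With limma, 0 of the 22180 genes passed an adjusted p under 0.05 (percent called 0), and 9.51% had an unadjusted p under 0.05, 4.18% as higher and 5.33% as lower in the Polg mutant. The erythroid identity of the cells was checked on 9 measured of 14 markers, all of which had a mean above a log2 of 6. Their mean level was 12.16 and 11.96 in the WT arrays against 11.69, 11.80 and 11.73 in the Polg mutant arrays, and each of the 9 was lower in every Polg mutant array than in both WT arrays, where the groups did not overlap in either direction for 18.1% of all genes. In such sorted bulk samples, fewer cells of a type and less RNA per cell cannot be told apart.

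Among the ETO genes, Runx1t1 was lower and Cbfa2t3 higher in the Polg mutant, while Cbfa2t2 hardly differed. Runx1t1, which encodes the founding ETO protein, read 7.86 and 8.46 in the WT arrays against 5.60, 5.86 and 6.19 in the Polg mutant arrays on the log2 scale. The groups did not overlap, and 1.66 log2 units lay between the lowest WT array and the highest Polg mutant array. The mean was 8.16 ± 0.42 (SD, n = 2) in WT and 5.89 ± 0.29 (SD, n = 3) in the Polg mutant, a log2 difference of -2.27 ± 0.28 (SE), or 4.82-fold lower. By the signed difference Runx1t1 ranked 2 of 22180 genes counted from the lowest. The Polg mutant levels stood closer to the array medians than the WT levels did, and signal over background was not known, so the fold may be understated.

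Cbfa2t3, which encodes ETO2, the corepressor of the TAL1 and GATA1 complex in erythroid cells, differed in the other direction. It read 6.95 and 7.52 in the WT arrays against 8.85, 8.18 and 8.56 in the Polg mutant arrays. All Polg mutant arrays lay above both WT arrays, with 0.66 log2 units between the groups. The means were 7.24 ± 0.40 (SD, n = 2) and 8.53 ± 0.33 (SD, n = 3), a log2 difference of 1.29 ± 0.29 (SE), or 2.45-fold higher. The difference did not pass limma's test over all genes (adjusted p = 0.321, unadjusted p = 0.0135). Leaving out single arrays gave differences from 1.01 to 1.58.

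Cbfa2t2, which encodes the third ETO protein MTGR1, read 6.63 and 6.56 in WT and 6.52 in each of the 3 Polg mutant arrays, where the deposited values were identical. The groups did not overlap, but only 0.045 log2 units lay between them. The log2 difference was -0.079 ± 0.028 (SE; limma adjusted p = 0.523), 1.06-fold lower, and identical values in a group make such an SE too small. Without WT replicate 2 the difference was -0.11 and passed (limma adjusted p = 0.0348), in a fit that takes the spread of the single remaining WT array from the Polg mutant. Exact ties between arrays were common in the deposited values, in 67.9% of the genes tested, and of the 6 genes measured here Runx1t1 and Cbfa2t3 had 5 distinct values.

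**Figure D1:**
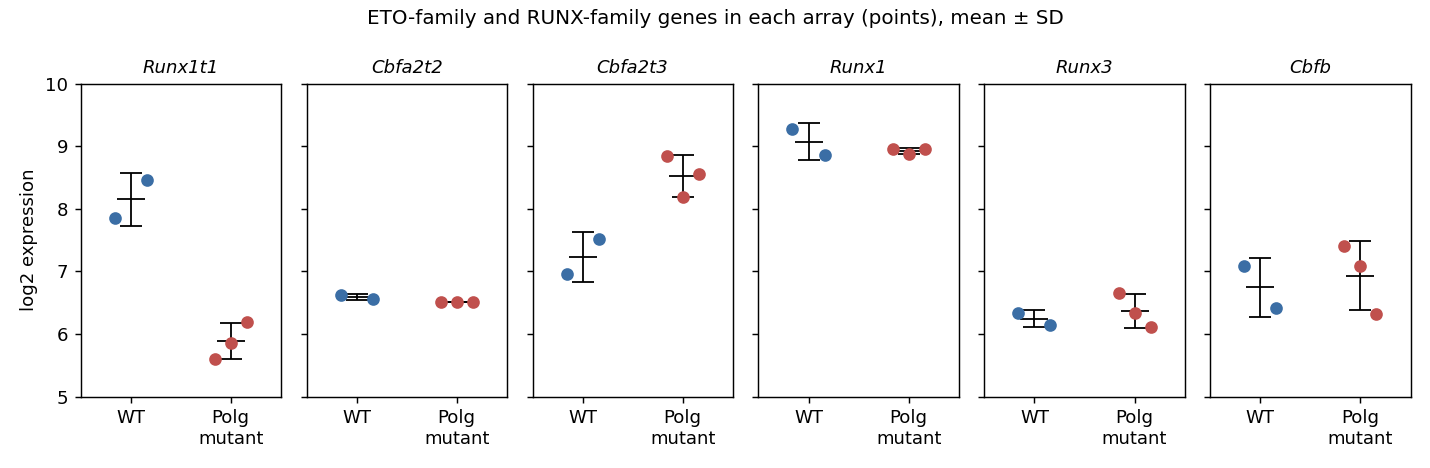
Log2 expression of each measured ETO-family and RUNX-family gene in 2 WT arrays (blue) and 3 Polg mutant arrays (red); bars are the mean ± SD. Runx1t1 is lower in all Polg mutant arrays (5.60 to 6.19) than in both WT arrays (7.86 and 8.46), Cbfa2t3 is higher (8.18 to 8.85 against 6.95 and 7.52), and the groups overlap for Runx1, Runx3 and Cbfb; levels of different genes are not comparable.

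The contrast of Runx1t1 with its paralogs was taken within each array, as the log2 value of Runx1t1 minus the mean of Cbfa2t2 and Cbfa2t3. Only the movement of this ratio between arrays can be read, because different probe sets have different brightness. It was 1.07 and 1.42 in the WT arrays against -2.08, -1.49 and -1.34 in the Polg mutant arrays. The ratio shifted by -2.88 log2 units, with no overlap between the groups. Against Cbfa2t3 alone the log2 ratio was 0.90 and 0.94 in WT against -3.24, -2.32 and -2.36 in the Polg mutant, a shift of -3.56 or 11.8-fold. Against Cbfa2t2 alone the shift was -2.19, and against Runx1, the fusion partner of Runx1t1 in leukaemia, it was -2.12. These shifts rest on the same Runx1t1 values that led to its choice, and no test was made of them.

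The RUNX genes and their partner Cbfb differed by less than the spread between arrays. Runx1, the RUNX factor of blood stem cells and megakaryocytes, read 9.28 and 8.86 in WT against 8.96, 8.87 and 8.96 in the Polg mutant. The Polg mutant arrays all lay between the WT arrays, and the log2 difference was -0.14 ± 0.14 (SE; limma adjusted p = 0.728). Its sign turned when WT replicate 1 was left out, with a difference of 0.065. Runx3, a RUNX factor of T and natural killer cells, read 6.34 and 6.15 in WT against 6.65, 6.34 and 6.12 in the Polg mutant. The groups overlapped, and the difference was 0.12 ± 0.19 (SE; limma adjusted p = 0.795), or -0.018 without Polg mutant replicate 1.

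Cbfb encodes the subunit that steadies RUNX proteins on DNA. It read 7.08 and 6.42 in WT against 7.40, 7.08 and 6.32 in the Polg mutant, so each group held high and low arrays. The log2 difference was 0.19 ± 0.43 (SE; limma adjusted p = 0.880). It was -0.15 without WT replicate 2 and -0.048 without Polg mutant replicate 1. The groups did not overlap for 3 of the 6 measured genes, Runx1t1, Cbfa2t3 and Cbfa2t2, where 18.1% of all genes did not overlap, 8.36% as higher and 9.73% as lower in the Polg mutant. Runx1t1 was in the set for that difference, so nothing is read from the count.

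The levels of Cbfb and Runx3 divided the arrays in another way than by genotype. Both were lowest in WT replicate 2 and Polg mutant replicate 3, at 6.42 and 6.32 for Cbfb and 6.15 and 6.12 for Runx3. The neutrophil marker list, 17 of 17 markers measured, had mean levels of 7.05 and 7.15 in these arrays, against 7.89 in WT replicate 1 and 8.28 and 8.74 in the other Polg mutant arrays. Fli1, an ETS factor found in ETO2 complexes, read 7.52 and 7.20 in those arrays and 7.99 to 8.21 in the others. Spi1, the myeloid factor PU.1 and a RUNX partner, read 7.25 and 7.03 there against 7.42 to 7.82. Cbfb, Runx3, Fli1 and Spi1 were set beside the marker list after their values were seen. The neutrophil markers Mpo and Elane, which RUNX1 regulates, read 10.54 to 11.64 and 10.55 to 11.75 over all arrays, well above the array medians. They were the brightest of this list, and other markers were dimmer, such as Ly6g at 4.59 to 7.12. Ly6g, Retnlg, Mmp9 and Cxcr2 were not lower in WT replicate 2 than in WT replicate 1, while the other markers of the list were. The part of neutrophil-lineage RNA in the levels of Cbfb and Runx3 was not tested. Runx1t1 and Cbfa2t3 did not divide the arrays in this way.

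**Figure D2:**
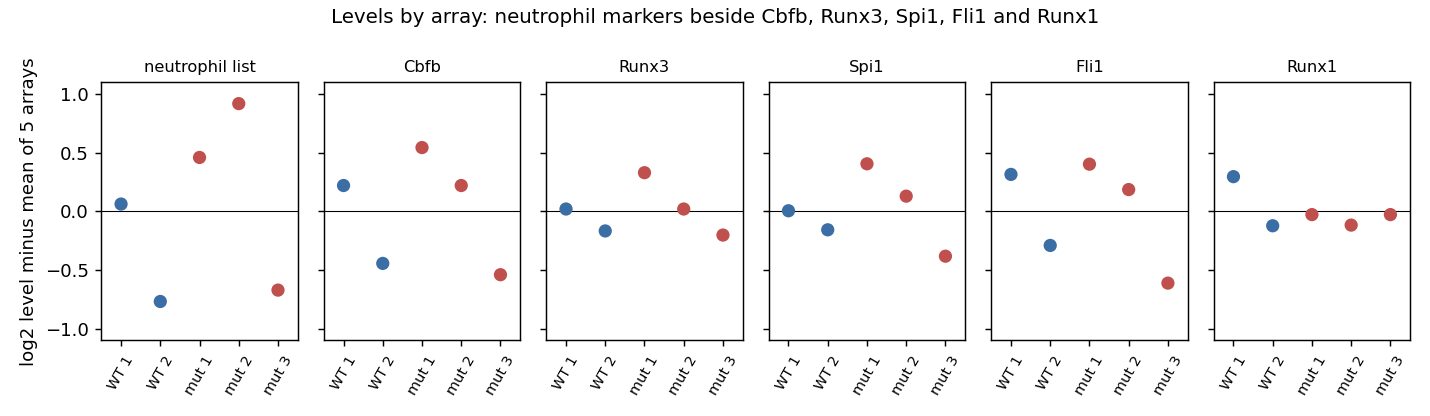
Log2 level minus the mean of the 5 arrays, by array (WT blue, Polg mutant red; mut is Polg mutant), for the mean of the 17 neutrophil markers and for Cbfb, Runx3, Spi1, Fli1 and Runx1. WT 2 and mut 3 are the lowest arrays in every panel except that of Runx1.

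Markers of other marrow cells were read beside the Runx1t1 difference. The megakaryocyte and platelet list, 10 of 13 markers measured, had means of 5.90 and 6.49 in WT against 5.89, 6.00 and 5.75 in the Polg mutant. The osteoblast and stroma list, 11 of 11, had 5.52 and 6.18 in WT against 5.47, 5.57 and 5.72 in the Polg mutant. Both list means were highest in WT replicate 2, where Runx1t1 was also highest. Ppbp read 8.41 there against 5.14 to 6.04 in the others, and Ibsp 6.60 against 4.39 to 4.82. Not all markers were highest there. Pf4, Gp9 and Treml1 of the megakaryocyte and platelet list were not, nor were Bglap, Sp7, Lepr, Pdgfrb, Cdh5 and Pecam1 of the stroma list. The difference of Runx1t1 was -1.97 without WT replicate 2 and -2.57 without WT replicate 1. The B cell list, 9 of 11 markers, had 5.79 and 5.30 in WT and 4.95 to 5.42 in the Polg mutant. The stem and early progenitor list, 10 of 12, had 5.71 and 5.62 in WT and 5.62 to 5.80 in the Polg mutant, and the mast cell and basophil list, 10 of 10, 5.65 and 5.70 against 5.64 to 5.83. The macrophage list, 11 of 11, had 5.02 and 5.11 in WT and 5.02 to 5.13 in the Polg mutant, and the T and NK cell list, 11 of 12, 4.76 and 4.66 against 4.71 to 4.74. The lower erythroid marker mean, by 0.32 log2 units, also accompanied the Runx1t1 difference, and the part of cell composition in it was not tested.

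The DNA-binding factors through which ETO proteins reach their genes were listed together with proteins that bridge or assist them, such as Lmo2 and Ldb1. The list included several genes with small differences in both directions. Of 21 such partners, all measured, 5 were lower and 2 higher with no overlap between the groups (33.3%, against 18.1% of all genes). The list median was -0.016, beside a median of 0.00 over all genes. Under median centring 8 partners did not overlap, where 28% of all genes did not. Under renewed quantile normalization 9 did not, where 31.1% of all genes did not. At an unadjusted limma p under 0.05 there were 4 lower and 1 higher, and 0 passed when adjusted over all genes. Without WT replicate 1 or WT replicate 2 a single array formed the WT group, and 15 and 12 partners then did not overlap, where 50.3% and 43.8% of all genes did not.

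The 5 lower partners without overlap were Gfi1b, Tcf3, Lmo2, Tal1 and Gata1. Gata1 is also among the 9 measured erythroid markers, all lower without overlap, so the counts of partners and markers are not fully separate. Gfi1b, a repressor needed for red cell and platelet formation, read 11.55 and 11.67 in WT against 10.98, 11.16 and 11.35 in the Polg mutant, a difference of -0.45 ± 0.13 (SE; limma adjusted p = 0.426). Tcf3, which encodes the E proteins E12 and E47, differed by -0.31 ± 0.10 (SE; limma adjusted p = 0.477). Lmo2, the bridging subunit, differed by -0.28, Tal1, the haematopoietic partner of E proteins, by -0.22, and Gata1, the master factor of erythroid cells, by -0.12. The higher partners were Gata2, the GATA factor of early progenitors, at 6.58 and 6.43 in WT against 7.44, 6.70 and 6.86 in the Polg mutant, and Lmo4, an LMO2 relative, by 0.40. Ldb1, which links LMO2 complexes over distance, Tcf12, the E protein HEB, Lyl1, a TAL1 relative, and Gfi1, the myeloid relative of Gfi1b, had differences of 0.048, -0.028, -0.016 and -0.008, and their groups overlapped. The sign turned under the replicate block for Tcf12, Lyl1 and Gfi1, under renewed quantile normalization for Lyl1 and under median centring for Gfi1.

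The corepressor machinery that ETO proteins recruit was measured for 14 of 16 fixed genes. In 5 of the 14 (35.7%, against 18.1% of all genes) the groups did not overlap, 3 lower and 2 higher, and the list median was -0.007. This count became 9 without WT replicate 1 and 8 without WT replicate 2, where 50.3% and 43.8% of all genes did not overlap. Under median centring and renewed quantile normalization 6 of the 14 did not overlap, where 28% and 31.1% of all genes did not. At an unadjusted limma p under 0.05 there were 2 lower and 1 higher, with 0 after adjustment over all genes. Hdac3, the deacetylase of NCOR complexes, had the same deposited value of 9.08 in all 5 arrays. Sin3a, the scaffold of another deacetylase complex, differed by -0.37, and Kdm1a, the histone demethylase that works with GFI1B, by -0.086 with overlapping groups. Prmt5, an arginine methyltransferase, read 8.44 and 8.38 in WT against 8.92, 8.77 and 8.66 in the Polg mutant, a difference of 0.37 ± 0.09 (SE; limma adjusted p = 0.340).

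RUNX cofactors and modifying enzymes were measured for 23 of 24 fixed genes. Of these, 6 (26.1%, against 18.1% of all genes) had groups that did not overlap, 3 higher and 3 lower, and the list median was 0.016. There were 14 without WT replicate 1 and 11 without WT replicate 2, beside 50.3% and 43.8% of all genes. Under median centring 6 of the 23 did not overlap, where 28% of all genes did not. Under renewed quantile normalization 8 did not, where 31.1% of all genes did not. At an unadjusted limma p under 0.05 there were 2 higher and 0 lower, and 0 passed after adjustment. The 2 were Prmt1, a methyltransferase that modifies RUNX1, with a difference of 0.43, and the histone methyltransferase gene Setdb1, with 0.32. Cdk6, a cyclin-dependent kinase that binds RUNX1, differed by 0.39 ± 0.27 (SE), the corepressor gene Tle3 by 0.31 ± 0.17, Spi1 by 0.13 ± 0.27 and the ETS factor gene Ets1 by 0.044 ± 0.115, all with overlapping groups. Without WT replicate 1 Cdk6 and Tle3 differed by 0.75 and 0.56, and without WT replicate 2 by 0.018 and 0.055.

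Targets were described last. Late erythroid targets of the ETO2 complex were measured for 5 of 10 fixed genes, and the others are not analysed here. The groups did not overlap in 4 of the 5, 3 lower and 1 higher, where 9.73% of all genes were lower and 8.36% higher without overlap, and the median was -0.13. At an unadjusted limma p under 0.05 there was 1 higher, Cdkn1a, and 0 passed after adjustment over all genes. In Slc4a1, the band 3 anion exchanger, the difference was -0.13, and in Klf1, an erythroid transcription factor, it was also -0.13, both lower in every Polg mutant array, as was Epb42, the membrane protein 4.2 gene, at -0.23. These 3 genes also belong to the 9 measured erythroid markers, which were all lower without overlap and whose mean differed by -0.32. The count for this list is therefore not separate from that of the markers. Cdkn1a, the cell cycle inhibitor p21, was the other way at 7.33 and 6.64 in WT against 10.50, 9.69 and 9.72 in the Polg mutant, a difference of 2.99 ± 0.38 (SE; limma adjusted p = 0.224). Bcl2l1, the survival gene of late erythroblasts, differed by 0.007.

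RUNX targets in blood cells were measured for 21 of 22 fixed genes, and the groups did not overlap in 4 (19.0%), close to the 18.1% of all genes, with a median of -0.016. Under median centring and renewed quantile normalization 6 and 5 did not overlap, where 28% and 31.1% of all genes did not. The count was 11 without WT replicate 1 and 9 without WT replicate 2, when 50.3% and 43.8% of all genes did not overlap. Myh10, a nonmuscle myosin gene that RUNX1 silences in megakaryocytes, read 8.93 and 8.91 in WT against 8.20, 8.51 and 8.52 in the Polg mutant, a difference of -0.51 ± 0.12 (SE; limma adjusted p = 0.347). Cd36, a fatty acid receptor gene, differed by -0.52 and Nfe2, a factor of platelet and globin genes, by -0.32. These were the 3 genes at an unadjusted limma p under 0.05 in this list, and 0 passed after adjustment. The megakaryocyte integrin gene Itga2b and the neutrophil gene Mpo differed by -0.14 ± 0.19 and 0.095 ± 0.484 (SE), with overlapping groups. RUNX2 targets in bone cells, 8 of 10 measured, had a median of -0.25 with 0 genes free of overlap and 0 at an unadjusted limma p under 0.05. Their median was -0.41 without WT replicate 1, with 5 of the 8 free of overlap, and -0.067 with 0 without WT replicate 2. WT replicate 2 had the highest osteoblast and stroma level, and Col1a1 read 8.61 there against 7.07 to 7.57 in the others. Col1a1, a type I collagen gene, and Mmp13, a collagenase gene, differed by -0.75 ± 0.42 and -0.34 ± 0.18 (SE). These were -1.33 and -0.57 without WT replicate 1, and -0.18 and -0.11 without WT replicate 2.

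**Figure D3:**
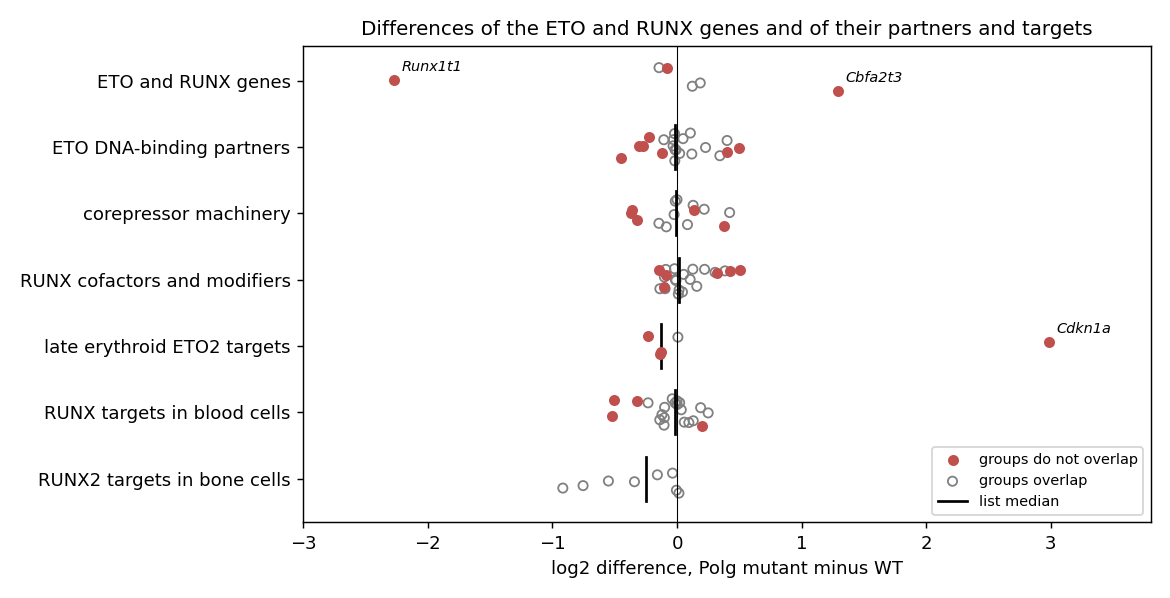
Log2 difference, Polg mutant minus WT, of each measured ETO and RUNX gene and of each member of the 6 lists of partners and targets; red points are genes whose groups do not overlap, open points those that overlap, and black lines the list medians, which lie between -0.25 and 0.016. Points are spread vertically for legibility; Runx1t1 (-2.27), Cbfa2t3 (1.29) and Cdkn1a (2.99) lie beyond 1 log2 unit.

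Genes with profiles most like that of Runx1t1 were found by the root mean square difference over the 5 arrays, after each profile was centred on its own mean, among 4556 genes whose range was at least 0.5 log2 units. The closest was Cacna1g, a T-type calcium channel gene, at a root mean square difference of 0.23, where a flat profile would give 1.14. It read 8.61 and 8.58 in WT against 6.00, 6.52 and 6.87 in the Polg mutant. The next were Gstt1, a glutathione transferase gene, at 0.42, Acp5, the tartrate-resistant acid phosphatase gene, at 0.50, and Fsd1l and Gp9 at 0.51 each. Gp9, a subunit of the platelet von Willebrand factor receptor, read 10.42 and 10.41 in WT against 8.84, 9.23 and 9.11 in the Polg mutant, and was the 1 of 10 megakaryocyte and platelet markers whose groups did not overlap. These likenesses follow the genotype difference by which Runx1t1 was chosen.

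The genes beside Runx1t1 on the chromosome were read in the order of the RefSeq annotation, with 10 measured genes taken on each side, a step added after the values were seen. The groups did not overlap in 6 of the 20 neighbours, 5 higher and 1 lower, where 8.36% and 9.73% of all genes did so. Tmem67, a ciliary transition-zone gene 5 places away, read 5.11 and 5.86 in WT against 9.15, 9.13 and 9.20 in the Polg mutant, 12.8-fold higher. Rbm12b2, an RNA-binding protein gene 4 places away, was 5.80-fold higher. Cibar1, a gene of primary cilia 2 places away, read 5.72 and 6.25 in WT and 6.99 to 7.02 in the Polg mutant, 2.02-fold higher. Thus 3 of the 20 neighbours of Runx1t1 differed by at least 1 log2 unit, all higher, while Runx1t1 was lower, and 0.875% of all genes differed by that much in either direction. The nearest measured neighbours on either side, Triqk and Gm11823, differed by 0.03 and 0.24 with overlapping groups.

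For Cbfa2t3, 8 of 20 neighbours did not overlap, against 18.1% of all genes, and 2 differed by at least 1 log2 unit, against 0.875%. Trappc2l, a vesicle-tethering complex gene 2 places away, read 7.35 and 8.30 in WT against 9.48, 8.77 and 8.95 in the Polg mutant, 2.36-fold higher. Its centred profile differed from that of Cbfa2t3 by a root mean square of 0.15, where a flat profile would give 0.69. The 5 genes most like Cbfa2t3, found in the same way as for Runx1t1, were closer, at 0.05 to 0.12. Rpl13, a ribosomal protein gene 8 places away, was 2.20-fold higher. The gene between Trappc2l and Cbfa2t3, Pabpn1l, read 4.81 in 4 arrays and 4.59 in Polg mutant replicate 3. The neighbours of Cbfa2t2, Runx1, Runx3 and Cbfb held 0 genes that differed by at least 1 log2 unit, with 2, 3, 9 and 5 of 20 free of overlap, beside the same 18.1% of all genes.

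**Figure D4:**
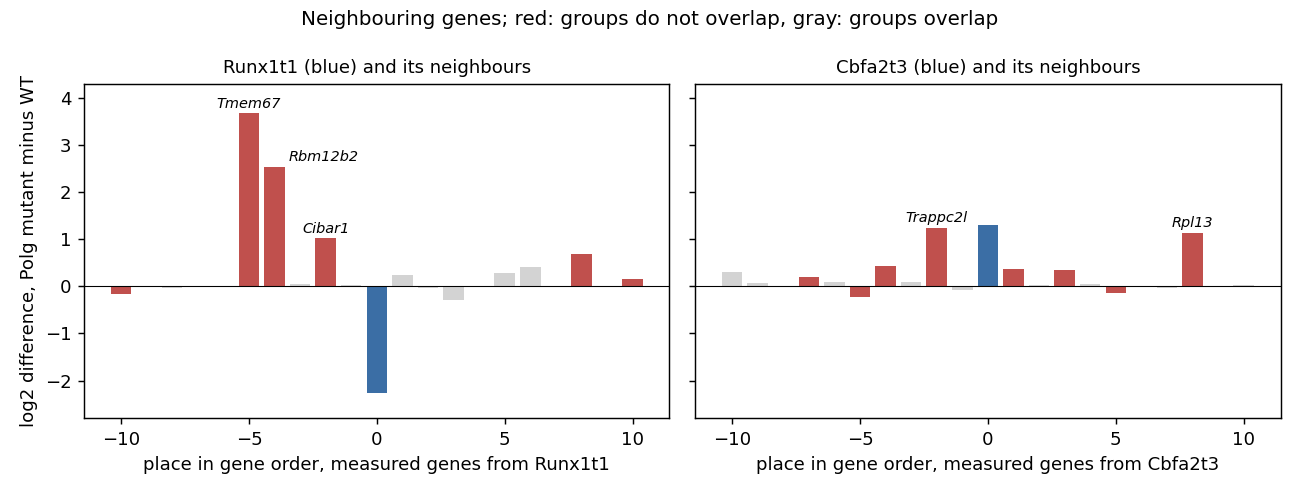
Log2 difference, Polg mutant minus WT, of the 10 measured genes on each side of Runx1t1 and of Cbfa2t3 in RefSeq gene order (blue: the named gene itself; red: groups do not overlap; gray: groups overlap). Tmem67, Rbm12b2 and Cibar1 are higher beside a lower Runx1t1 (-2.27), and Trappc2l and Rpl13 are higher beside a higher Cbfa2t3 (1.29).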

How the data were processed

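Log2 expression values of 41345 probe sets were deposited by the authors in a single table with a column for each array. Per the submitters' processing notes the tools were RMA and Partek 6.5, whose roles are not stated. That the deposited values are log2 follows from their range, 1.43 to 14.1. Probe annotation and genome build are not given in the sources used here. No scanner files were used here, so precision rests on how many arrays there are.

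The platform's annotation paired 23521 probe sets with 1 symbol, 1814 with several and 16010 with none. Each gene was read from its brightest single-symbol probe set, giving 22180 genes. WT and Polg mutant were set against each other over all 5 arrays by limma 3.58.1 (R 4.3.3) with genotype alone in the model, moderated without a trend. Tests were two-sided, with p-values adjusted over all genes by Benjamini and Hochberg and a threshold of 0.05. The fit was tested on simulated data. An exact permutation test of 1 gene could not go below p = 0.1.

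Groups do not overlap where every array of a group lies above or below all arrays of the other. The 7 genes and the 6 lists (103 symbols, 92 measured) were chosen with earlier results of these data known. The text names the members, a fixed set of list genes, up to 2 further genes per list by smallest p, and the 5 genes most like Runx1t1. Epb42, Bcl2l1, Nfe2, Fli1, Elane, Ly6g, Retnlg, Mmp9, Cxcr2 and the chromosomal neighbours were named after their values were seen. So were the platelet and stroma markers named beside the Runx1t1 difference. Alternatives were other scalings, mean over probe sets, a dim filter, untied genes, other variance settings, a replicate block and leaving out each array. RefSeq placed 21994 of the genes in order.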

Additional observations from a re-analysis of the deposited data

How the results depend on the processing

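Runx1t1 and its ratio to its paralogs kept their direction in all 9 alternatives run for them, with differences from -2.57 to -1.97 and from -3.05 to -2.66 on leaving out single arrays. Cbfa2t3 stayed higher in all 13, from 1.01 to 1.58 on leaving out single arrays, with limma adjusted p from 0.0677 to 0.677. Leaving out single arrays moved Cbfa2t2 between -0.113 and -0.045, Runx1 between -0.35 and 0.065, Runx3 between -0.018 and 0.25 and Cbfb between -0.15 and 0.52. It moved the list genes Lyl1 between -0.089 and 0.088, Tcf12 between -0.14 and 0.085, Gfi1 between -0.50 and 0.49, Ets1 between -0.037 and 0.12, Mpo between -0.43 and 0.62, Itga2b between -0.35 and 0.077 and Spi1 between -0.050 and 0.34. Leaving out 1 WT array moved Gata1 between -0.19 and -0.049, Ldb1 between 0.015 and 0.082, Kdm1a between -0.13 and -0.041, Slc4a1 between -0.19 and -0.067, Klf1 between -0.19 and -0.080 and Prmt1 between 0.28 and 0.57. Median centring gave 0.0058 for Gfi1 and renewed quantile normalization 0.0065 for Lyl1.

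Genes past the threshold over the whole table numbered 0 to 713 higher and 0 to 1068 lower on leaving out single arrays. Renewed quantile normalization gave 8 and 1, and there were 6 and 5 among genes above a log2 of 6 on 2 arrays, 4 and 1 without moderation and 73 and 41 among untied genes, where 1 list gene, Cdkn1a, passed. List genes past the threshold numbered 0 to 3 on leaving out single arrays. The labels do not say that equal replicate numbers pair the samples, and their deviations from the group means had r of 0.19 and -0.20 across genes for the pairs of number 1 and number 2. With the replicate number as a block, Runx1t1 differed by -2.42 and Cbfa2t3 by 1.28, and Lyl1, Tcf12 and Gfi1 by 0.088, 0.028 and 0.061. The share of all genes whose groups did not overlap moved from 18.1% to 28% under median centring and 31.1% under renewed quantile normalization. Of the late erythroid targets 4 did not overlap under both, and of the RUNX2 targets 0 and 1. Where the fit with a block or without an array changed a value, the cause was not tested. With 2 and 3 arrays and no signal over background, small differences and dim genes cannot be resolved.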
